A study of Homo sapiens with 13 samples.

Results

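DNA-RNA hybrids were examined at 10 genes whose products act on DNA supercoiling or package nascent mRNA. They are the topoisomerase genes TOP1, TOP2A, TOP2B, TOP3A and TOP3B, the THO genes THOC1, THOC2 and THOC5, and ALYREF and DDX39B, whose products join THO in the TREX complex. All 10 were found among the 19974 protein-coding genes of the RefSeq gene table on chromosomes 1 to 22 and X. A peak was assigned to a gene when it overlapped the annotated span or the 2 kb on either side. By that rule the genes held 7 of 12687 peaks in the siREXO4 list, 16 of 20954 in the siRNaseH1 list and 2 of 4458 in the siCtrl list.

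The peaks come from DRIP-seq, in which sonicated genomic DNA is precipitated with S9.6, an antibody that binds DNA-RNA hybrids. The cells were U2OS, a human osteosarcoma line, transfected with an siRNA against REXO4 (labelled REXO4 knockdown), an siRNA against RNaseH1 (RNaseH1 knockdown) or a control siRNA (labelled WT). Each transfection had 3 S9.6 libraries, which the authors merged into 1 peak list, so a value has no replicate error and no test between transfections was possible. The 3 inputs and the IgG library from siCtrl cells were not analysed here. Peaks do not measure transcripts and give no check of the knockdowns.

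An R-loop forms when nascent RNA pairs with its template and leaves the other DNA strand unpaired. Negative supercoils behind a transcribing polymerase ease that pairing, and topoisomerases relax them. THO loads onto nascent RNA and helps to keep it off the template, and TREX hands the packaged mRNA to the nuclear export receptor. RNaseH1 degrades the RNA strand of hybrids, and REXO4 belongs to a family of predicted exonucleases. The series asks whether these 2 enzymes process R-loops in the same regions. The genes studied here are themselves transcribed, and the values describe hybrids at their loci, not the activity of their products.

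The sequences at the starts of ALYREF and TOP1 are printed because these genes held the strongest peaks of the group and differed in where the peaks lay. Each runs 5′ to 3′ on the gene's own strand from RefSeq (GRCh38.p14, whose coordinates are those of hg38), with the first transcribed base at position 251. Capitals mark runs of 4 or more G or of 4 or more C. ALYREF is at chr17:81891538-81891837 on the minus strand, and TOP1 is at chr20:41028572-41028871 on the plus strand.
ALYREF: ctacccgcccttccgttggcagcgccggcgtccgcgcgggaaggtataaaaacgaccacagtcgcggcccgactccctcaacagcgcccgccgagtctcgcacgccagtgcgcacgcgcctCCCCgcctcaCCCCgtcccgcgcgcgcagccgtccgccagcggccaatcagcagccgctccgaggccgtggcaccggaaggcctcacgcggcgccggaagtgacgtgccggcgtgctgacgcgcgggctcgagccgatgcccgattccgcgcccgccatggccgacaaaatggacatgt
TOP1: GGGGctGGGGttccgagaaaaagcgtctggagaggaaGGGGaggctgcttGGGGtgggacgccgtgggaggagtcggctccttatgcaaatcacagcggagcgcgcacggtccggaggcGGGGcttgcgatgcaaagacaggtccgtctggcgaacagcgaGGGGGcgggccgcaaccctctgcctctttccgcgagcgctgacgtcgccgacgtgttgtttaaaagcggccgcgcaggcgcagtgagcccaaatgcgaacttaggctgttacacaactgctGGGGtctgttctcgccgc

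Among the 10 genes, 3 held a siREXO4 peak that no siCtrl peak overlapped (called gained here), namely TOP1, TOP2A and ALYREF. Of all protein-coding genes, 31.3% did. A gained siRNaseH1 peak was found in 5 of the 10, the same 3 genes together with TOP2B and THOC5, against 37.6% of protein-coding genes. TOP1 and ALYREF were the 2 members where gained peaks of both lists overlapped, against 20.8% of protein-coding genes, and also the 2 members with a siCtrl peak, against 12.0%. TOP3A, TOP3B, THOC1, THOC2 and DDX39B held no peak in any list, as did 53.3% of protein-coding genes. Read against these shares, the counts for the 10 genes lie near the background. TOP1 and ALYREF held 19 of the 25 peaks.

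A long gene has more room for a peak, so the background was also split by span. Among the 7 members of 20 to 100 kb, 2 held a gained siREXO4 peak, against 36.3% of protein-coding genes of that span. In the same class 4 held a gained siRNaseH1 peak, against 45.0%. THOC2, the longest member at 132 kb, held none, while 40.7% of genes over 100 kb held a gained siREXO4 peak and 47.5% a gained siRNaseH1 peak. Of the 2 members under 20 kb, ALYREF (3.75 kb) held both kinds and DDX39B (11.8 kb) neither, against 23.5% of genes of that span with a gained siREXO4 peak and 27.7% with a gained siRNaseH1 peak.

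**Figure D1:**
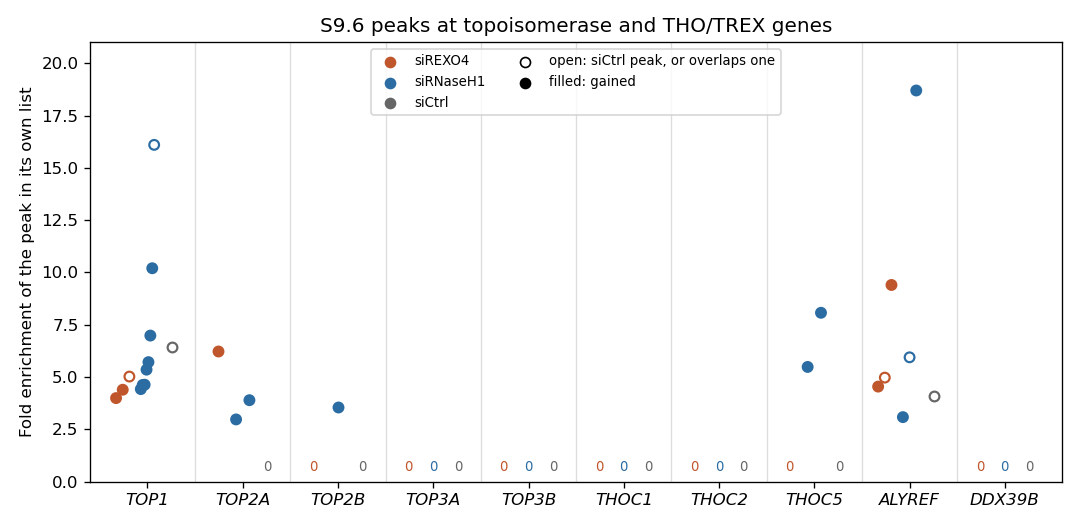
Fold enrichment of every peak at the 10 genes (vertical axis, the authors' value within each list), with siREXO4, siRNaseH1 and siCtrl from left to right within a gene. Filled points are gained, open points are siCtrl peaks or overlap one, and a 0 marks a list with no peak. The highest points are siRNaseH1 peaks at ALYREF (18.7) and TOP1 (16.1), and 5 genes have no point.

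**Figure D2:**
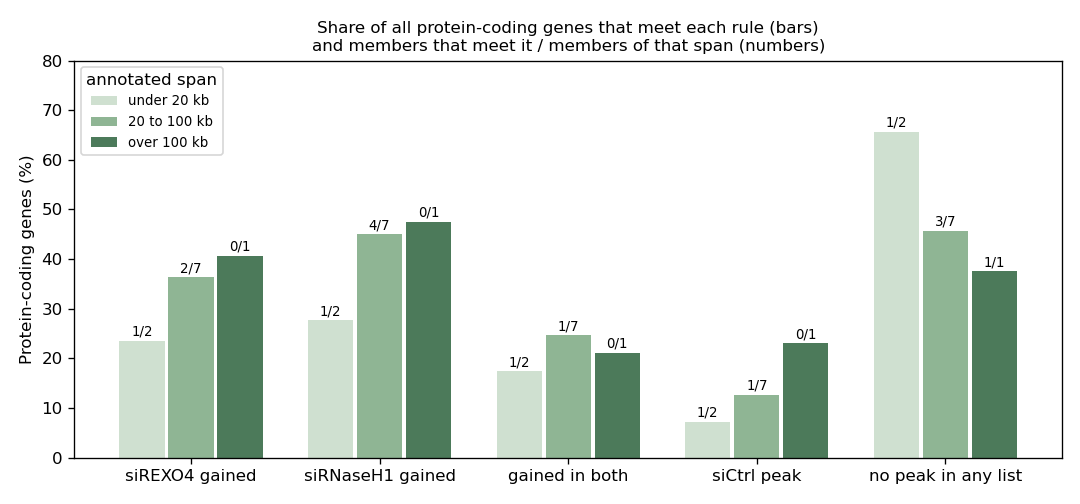
Bars give the percentage of all protein-coding genes, by annotated span, that hold a gained siREXO4 peak, a gained siRNaseH1 peak, a peak gained in both, a siCtrl peak or no peak at all. The numbers over the bars are the members that do so, out of all members of that span, such as 4 of 7 for gained siRNaseH1 peaks at 20 to 100 kb, where the bar stands at 45.0%.

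Fold enrichment compares a peak's highest point with the local background that the authors' peak caller estimated, so it ranks peaks within a list only. To set lists side by side, the whole number of fragments behind each summit was worked out from its fold and p-value together. It was divided by the lowest background of the list, taken as its genome-wide coverage, which was 1.41 fragments for siREXO4, 1.36 for siRNaseH1 and 1.28 for siCtrl. At that background a summit of 7 fragments was enough for a peak in each list, which is a fold of 3.32, 3.39 and 3.51 in the same order. Intervals are exact 95% Poisson intervals of the fragment number. They cover counting error only, not the spread between cultures, and summits are local maxima.

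TOP1 encodes the enzyme that nicks a single DNA strand to relax supercoils during transcription. It spans 95.7 kb of chromosome 20, from 41028822 to 41124487 on the plus strand. It held 3 peaks in the siREXO4 list, 8 in the siRNaseH1 list and 1 in the siCtrl list, which joined into 9 separate loci. Of the siREXO4 peaks 2 were gained, and of the siRNaseH1 peaks 7 were gained. As many gained siRNaseH1 peaks or more were found in 2.68% of the protein-coding genes of 20 to 100 kb (205 of 7640). For its 2 gained siREXO4 peaks that share was 12.4%. TOP1 is near the top of this span class, and genes closer to it in length were not compared separately. Peaks covered 1.20% of the gene and its flanks in siREXO4, 3.0% in siRNaseH1 and 0.325% in siCtrl.

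A single TOP1 locus was present in all 3 lists, about 8 kb inside the gene. Its siREXO4 peak ran from 41036788 to 41037186 with a fold of 5.02 and 13 fragments at the summit. Its siRNaseH1 peak ran from 41036758 to 41037390 with a fold of 16.1 and 37 fragments. Its siCtrl peak ran from 41036883 to 41037206 with a fold of 6.44 and 14 fragments. Relative to genome-wide coverage the summits stood at 9.22 times in siREXO4 (4.91 to 15.8), 27.3 times in siRNaseH1 (19.2 to 37.6) and 11.0 times in siCtrl (6.0 to 18.4). The siRNaseH1 summit was thus the highest, its interval did not meet that of siREXO4 or siCtrl, and the siREXO4 and siCtrl intervals overlapped. By fold it was peak 667 of its list, within the upper 3.18%.

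Downstream of that locus the siRNaseH1 list held 3 further peaks within 8 kb, all absent from the siREXO4 and siCtrl lists. Their summits lay 11.0, 13.3 and 15.3 kb from the start, with folds of 10.2, 4.42 and 5.71. The first of these had 23 fragments, 16.9 times genome-wide coverage (10.7 to 25.4). Scaled to siCtrl coverage, it reached 3.09 times the number a siCtrl call would have needed at the same local background. The other 2 reached 1.18 and 1.67 times that number, close to the limit. In the middle of the gene, siRNaseH1 peaks at 46.5 kb (fold 6.98) and 67.5 kb (4.63) and a siREXO4 peak at 28.5 kb (3.99) each stood in a single list.

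Near the end of TOP1 a peak was gained in both knockdowns. The siREXO4 peak, from 41117540 to 41118009, had a fold of 4.39 and 10 fragments. The siRNaseH1 peak, from 41117457 to 41117831, had a fold of 5.35 and 13 fragments. These summits reached 1.13 and 1.53 times the siCtrl limit, so they were weak peaks. A further siRNaseH1 peak of fold 4.62 lay 3.55 kb before the gene end. These loci also lie in PLCG1-AS1, an lncRNA gene annotated on the opposite strand, and the peak lists carry no strand, so the transcript in the hybrid cannot be told apart. No peak in any list overlapped the start of TOP1, whose printed sequence holds 7 G runs and no C run.

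**Figure D3:**
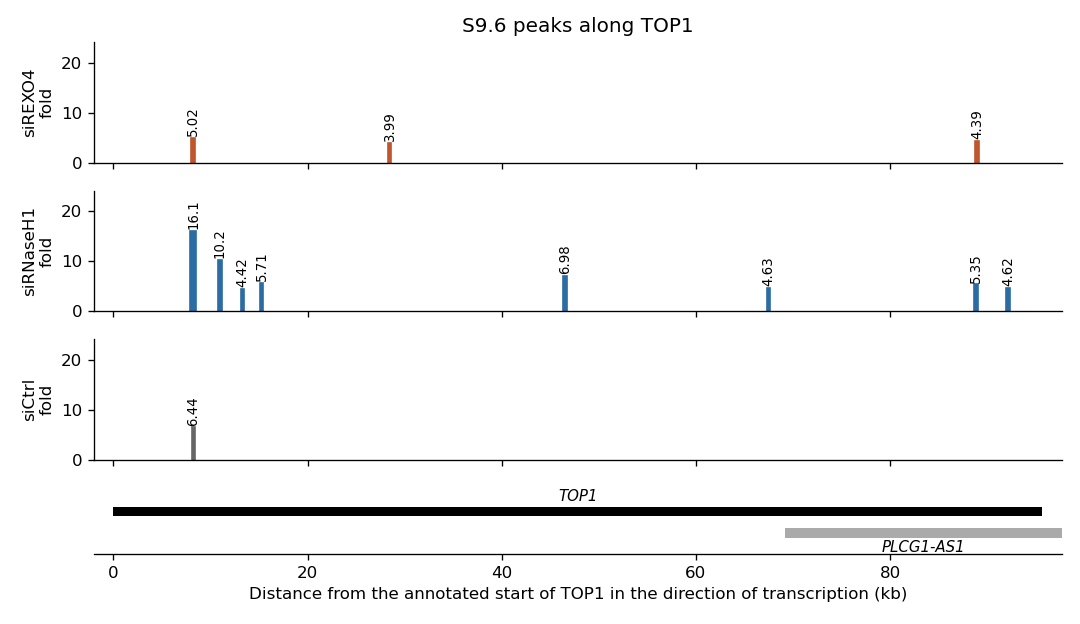
Peaks along TOP1 in the siREXO4, siRNaseH1 and siCtrl lists (top to bottom), drawn to scale as bars whose height is the fold enrichment and whose position is the distance from the annotated start in kb. The black bar is TOP1 and the grey bar is the part of PLCG1-AS1 in view. The siRNaseH1 panel shows 4 peaks between 8.18 and 15.3 kb, where the siREXO4 and siCtrl panels have 1 each.

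TOP2A and TOP2B encode the type II topoisomerases, which cut both DNA strands. TOP2A is the form of dividing cells, and TOP2B is also made in resting cells. TOP2A spans 29.4 kb of chromosome 17, from 40388525 to 40417896 on the minus strand. Its single siREXO4 peak, from 40386881 to 40387166, lay 1.44 kb past the gene end, with a fold of 6.23 and 14 fragments. Its 2 siRNaseH1 peaks lay inside the gene, from 40390119 to 40390470 with a fold of 3.89 and from 40409784 to 40410049 with a fold of 2.97. The knockdowns thus shared no TOP2A locus, and siCtrl had no peak there. How often peaks of the knockdown lists fail to overlap was not counted over all peaks, so this is not read as a trait of TOP2A. The local background under the siRNaseH1 peaks was 3.37 and 4.05 fragments, above the genome-wide 1.36, and the summits reached 1.25 and 1.01 times the siCtrl limit. The siREXO4 peak reached 1.81 times.

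TOP2B spans 67.0 kb of chromosome 3, from 25597905 to 25664907. It held 1 siRNaseH1 peak, from 25601265 to 25601574, with a fold of 3.56 and 17 fragments on a local background of 4.05. This summit lay 3.58 kb before the gene end and reached 1.23 times the siCtrl limit. The nearest siREXO4 peak was 482 kb away and the nearest siCtrl peak 1155 kb away.

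TOP3A and TOP3B encode type IA enzymes that pass single strands. TOP3A acts with the BLM helicase, and TOP3B also works on RNA. Neither gene held a peak in any list. TOP3A spans 43.6 kb of chromosome 17, from 18271428 to 18314994. Its nearest siRNaseH1 peak lay 4.00 kb past its end, near MIEF2 but with the summit in no annotated gene, with a fold of 5.86. TOP3B spans 25.8 kb of chromosome 22, from 21957025 to 21982787. Its nearest peaks lay at PPM1F, 4.10 kb away in siREXO4 (fold 3.77) and 4.13 kb away in siRNaseH1 (4.46). In all, 2 siREXO4 peaks, 5 siRNaseH1 peaks and no siCtrl peak had their nearer edge between 2 and 5 kb from one of the 10 genes. Apart from the peaks at TOP3A and TOP3B, these were siRNaseH1 peaks 2.76 kb before the start of THOC5 (fold 4.36) and 3.87 and 4.77 kb past the end of TOP1 (5.90 and 5.81), and a siREXO4 peak 4.36 kb past the end of ALYREF (3.14). Within the 2 kb, the peaks that did not reach the gene itself were 3 siREXO4 peaks, 1.36 kb past TOP2A and 0.23 and 1.75 kb past ALYREF, 1 siRNaseH1 peak 0.17 kb past ALYREF and 1 siCtrl peak 0.65 kb past ALYREF.

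THOC1, THOC2 and THOC5 encode subunits of the THO core, of which THOC2 is the large scaffold. THOC5 spans 47.9 kb of chromosome 22, from 29505879 to 29553757 on the minus strand, and held 2 siRNaseH1 peaks and none in the other lists. The stronger ran from 29546648 to 29547111, 6.88 kb inside the gene, with a fold of 8.07 and 22 fragments. It stood at 16.2 times genome-wide coverage (10.2 to 24.5) and at 2.30 times the siCtrl limit. The second, from 29526251 to 29526544, had a fold of 5.48 and 16 fragments and reached 1.67 times that limit. The nearest siREXO4 peak was 26.9 kb away, at the neighbouring gene NIPSNAP1.

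THOC1 and THOC2 stood far from any peak. THOC1 spans 53.5 kb of chromosome 18, from 214520 to 268047. Its nearest peak was 234 kb away in siREXO4, 397 kb in siRNaseH1 and 1138 kb in siCtrl. THOC2 spans 132 kb of the X chromosome, from 123600569 to 123733052. Its nearest peak was 127 kb away in siREXO4, near XIAP, 228 kb in siRNaseH1 and 6787 kb in siCtrl. A missing peak says that the summit coverage stayed under the calling limit, not that hybrids were absent.

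ALYREF encodes the adaptor that couples TREX to the export receptor. It is the shortest of the 10 genes. With the flanks included, it is also the one with the largest share under peaks in each list. It lies on chromosome 17 from 81887835 to 81891587, on the minus strand. Peaks covered 36.6% of the gene and its flanks in siREXO4, 45.0% in siRNaseH1 and 3.43% in siCtrl. There were 3 siREXO4 peaks, 3 siRNaseH1 peaks and 1 siCtrl peak.

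At the start of ALYREF a wide peak was gained in both knockdowns. The siREXO4 peak ran from 81890682 to 81892052, 1371 bp, with a fold of 9.40 and 42 fragments. The siRNaseH1 peak ran from 81890696 to 81891999, 1304 bp, with a fold of 18.7 and 91 fragments. These widths compare with list medians of 383 bp in siREXO4 and 394 bp in siRNaseH1. The summits stood at 29.8 times genome-wide coverage in siREXO4 (21.5 to 40.3) and 67.1 times in siRNaseH1 (54 to 82.3), and these intervals did not overlap. They reached 3.17 and 6.58 times what a siCtrl call would have needed, the highest values among the gained peaks of the 10 genes in each list. In rank by fold, the siREXO4 peak was 1303 of 12687 and the siRNaseH1 peak 504 of 20954.

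Both peaks spanned the whole printed ALYREF window, and their summits lay 0.20 kb inside the gene in siREXO4 and 0.10 kb in siRNaseH1. ANAPC11, an anaphase-promoting complex gene on the plus strand, starts within ALYREF and overlaps it head to head over about 0.797 kb. Both summits lie in that overlap, and the 2 genes cannot be told apart. ALYREF was the only member with a peak over its start. Such a peak was found in 17.1% of the 15812 protein-coding genes with a promoter window in siREXO4, 17.6% in siRNaseH1 and 1.95% in siCtrl.

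The ALYREF window was 72.7% G and C, a value that 18.3% of 22132 windows reached, with 50 CpG sites against a median of 21. Its skew, G minus C over G plus C, was -0.15, so C exceeded G on the ALYREF strand. Of all windows, 88.4% had a skew as high or higher. An RNA of ANAPC11, which also crosses this window, would have the sequence of the other strand, where the sign is reversed. On the ALYREF strand the window held 2 runs of CCCC and none of GGGG. TOP1, without a peak at its start, had 64.7% G and C and a skew of 0.19. TOP3A, without any peak, had the highest skew of the members at 0.38, which 1.43% of windows reached. Over all windows, 81.1% held GGGG, 78.8% held CCCC and 93.5% held either, counted on the gene's strand, where CCCC is GGGG of the other strand. Windows under a siRNaseH1 peak had a median of 68.3% G and C, against 61.0% for the others, and a median skew of 0.03 against 0.02.

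Past the end of ALYREF, a locus was present in all 3 lists. In siREXO4 it was split into peaks from 81886393 to 81887603 (fold 4.97, 21 fragments) and from 81885542 to 81886086 (fold 4.54, 17 fragments). In siRNaseH1 it was a single peak of 2548 bp, from 81885120 to 81887667, with a fold of 5.94 and 41 fragments. In siCtrl it was a 266 bp peak from 81886923 to 81887188, with a fold of 4.07 and 16 fragments. The highest summits stood at 14.9 times genome-wide coverage in siREXO4 (9.22 to 22.8), 30.2 times in siRNaseH1 (21.7 to 41.0) and 12.5 times in siCtrl (7.17 to 20.4). These summits are not at 1 position, since that of siRNaseH1 lay 1.94 kb past the gene end, where siCtrl had no peak, and those of siREXO4 and siCtrl lay 0.76 and 0.73 kb past it. The siREXO4 interval overlapped both others, and the siRNaseH1 interval lay above that of siCtrl. The local background was also highest in siRNaseH1, at 6.07 fragments against 3.42 in siREXO4 and 3.18 in siCtrl. The siREXO4 peak farther from the gene counts as gained only because the narrow siCtrl peak does not reach it. A last siRNaseH1 peak, of fold 3.08, lay inside the gene 0.25 kb before its end, at 1.07 times the siCtrl limit.

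**Figure D4:**
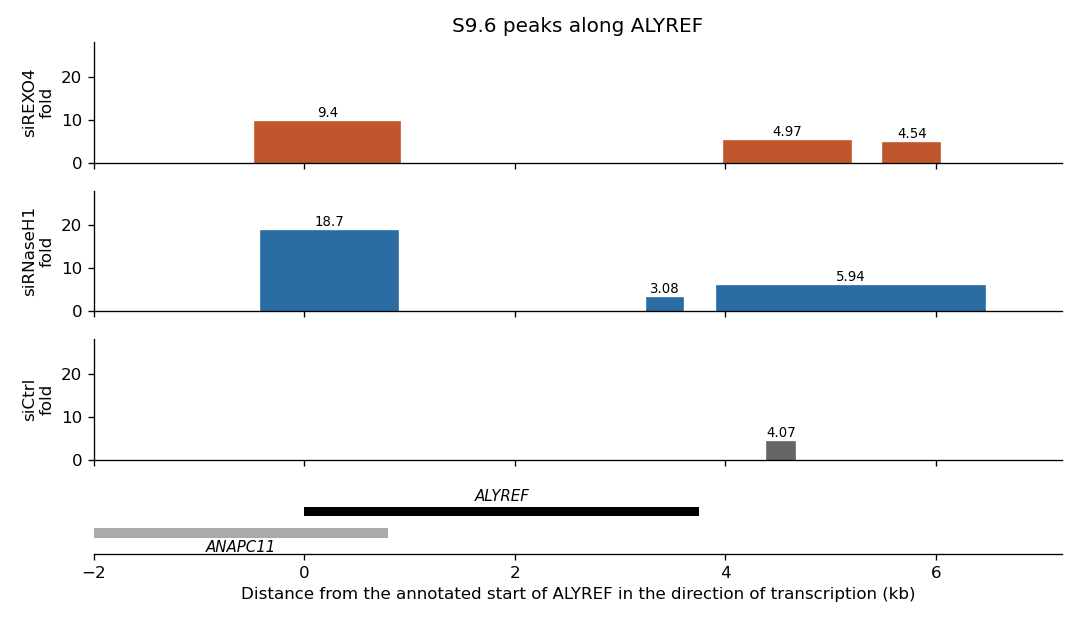
Peaks along ALYREF in the siREXO4, siRNaseH1 and siCtrl lists (top to bottom), drawn to scale as bars whose height is the fold enrichment and whose position is the distance from the annotated start in kb. The black bar is ALYREF and the grey bar is the part of ANAPC11 in view. The bar over the start, 9.40 in siREXO4 and 18.7 in siRNaseH1, has no counterpart in siCtrl, while all 3 lists have a bar past the gene end.

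DDX39B encodes an RNA helicase of TREX, also called UAP56. It spans 11.8 kb of chromosome 6, from 31530226 to 31542003, in the major histocompatibility region. No list held a peak there, and the nearest lay 77.8 kb away in siREXO4 and 78.0 kb in siRNaseH1, near PRRC2A. Peaks were sparse in this region on the primary chromosome. Of 190 protein-coding genes between 28 and 34 Mb, 14.2% held a siREXO4 peak, 18.9% a siRNaseH1 peak and 2.11% a siCtrl peak. In the same order, the shares were 33.7%, 39.2% and 12.0% of all protein-coding genes. Among those under 20 kb, the class of DDX39B, they were 26.1%, 29.3% and 7.21%. The 190 genes were not matched for span. The alternative contigs of chromosome 6 held 112 siREXO4, 143 siRNaseH1 and 14 siCtrl peaks. They were not sorted by the part of the chromosome they repeat. The gene table gives no positions on those contigs, so their part in the missing DDX39B peak was not tested. DDX39A, the close relative of DDX39B on chromosome 19, held a peak over its start in all 3 lists, with a fold of 13.7 in siREXO4, 17.0 in siRNaseH1 and 7.94 in siCtrl.

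Over the 10 genes, the 25 peaks formed 18 loci. Of these, 12 stood in the siRNaseH1 list alone, 2 in the siREXO4 list alone, 2 in both knockdowns without siCtrl and 2 in all 3 lists, and none in siCtrl alone. The siRNaseH1 list is also the longest, at 20954 peaks against 12687 in siREXO4 and 4458 in siCtrl. The same split was not made over all peaks, so it is not read as a trait of these genes. Within 2 kb of a gene boundary lay 3 of the 7 siREXO4 summits, 4 of the 16 siRNaseH1 summits and 1 of the 2 siCtrl summits. ALYREF, at 3.75 kb, is so short that any summit inside it is counted here. No such share was computed over all peaks, so these counts do not describe where peaks of these genes tend to lie. The gained siREXO4 peaks had a median of 1.40 times the siCtrl limit and 1 of 5 reached 2 times. The gained siRNaseH1 peaks had a median of 1.45, and 3 of 14 reached 2 times, at TOP1, THOC5 and ALYREF. This ratio was computed only for peaks at the 10 genes, so it cannot show whether their gained peaks differ from others.

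Other genes of these pathways were counted in the same way. A list of 8 genes covered relatives and partners of topoisomerases and enzymes that repair topoisomerase lesions. Of these 8, 5 held a gained siREXO4 peak, 6 a gained siRNaseH1 peak, 3 a peak gained in both and 2 a siCtrl peak. In the same order, 31.3%, 37.6%, 20.8% and 12.0% of all protein-coding genes did so. RMI1, a partner of TOP3A, had the highest siREXO4 fold of the 8 genes at 14.8 and a siRNaseH1 fold of 8.23. Both summits, however, lie in the neighbouring gene HNRNPK. TDP1, which removes trapped TOP1 from DNA, held peaks of 3.92 in siREXO4 and 8.25 in siRNaseH1. BLM held peaks of 3.26 in siREXO4, 4.30 in siRNaseH1 and 6.01 in siCtrl, at 3 different places in the gene.

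Of 11 further TREX and export genes, 7 held a gained siREXO4 peak, 6 a gained siRNaseH1 peak, 5 a peak gained in both and 4 a siCtrl peak, against the same shares of 31.3%, 37.6%, 20.8% and 12.0%. THOC6, a THO subunit, had the highest siRNaseH1 fold of these genes at 24.3, but with its summit in TNFRSF12A. Its highest siREXO4 peak was 7.10 and its highest siCtrl peak 5.40, both with the summit in HCFC1R1. DDX39A had the highest siREXO4 and siCtrl folds, given above, and its peaks do not count as gained because siCtrl held one there. NXF1, the mRNA export receptor, held peaks of up to 6.42 in siREXO4, 9.04 in siRNaseH1 and 4.46 in siCtrl. THOC3, THOC7 and FYTTD1 held no peak in any list.

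Of 6 TREX-2 genes, whose complex links transcription to the nuclear pore, 2 held a gained siREXO4 peak, 5 a gained siRNaseH1 peak and 2 a peak gained in both, and none held a siCtrl peak. SEM1 held 8 siRNaseH1 peaks of up to 9.33 over its 228 kb, and no peak in siREXO4 or siCtrl. PCID2 had 7.77 in siREXO4 and 7.52 in siRNaseH1, with the summits in CUL4A. CETN3, a centrin gene, had 7.39 in siREXO4 and 4.93 in siRNaseH1. The shares of all protein-coding genes are those given for the other lists. These lists hold few genes, and their counts were not tested against those shares.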

How the data were processed

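Each peak list was called by the authors on the pooled S9.6 libraries of a transfection, 3 per list, per the labels. Among the tools in the submitters' processing notes are MACS2 2.1.0.20150731 for the hg38 build, HISAT2 2.2.1, SAMtools 1.17 and Trim Galore 0.6.10, along with deepTools 3.5.1 and Cufflinks. Their roles and options, the control library, the read depth and the handling of duplicates are not stated in the sources used here. The deposited fold enrichment is a ratio of summit to background coverage. The deposited −log10 p value and the −log10 q value describe that summit too, and the deposited score, which follows the q, was not used further.

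Only chromosomes 1 to 22 and X were used. A knockdown peak that shared no base with any siCtrl peak was called gained. Fragments and local background at a summit were recovered as the whole number that satisfies both fold, (fragments + 1) / (background + 1), and the upper Poisson tail. All 12624 siREXO4, 20850 siRNaseH1 and 4432 siCtrl peaks with −log10 p below 250 did so within a tolerance of 0.001. The siCtrl limit of a peak is the fewest fragments that reach the lowest −log10 p of the siCtrl list (4.13) at that peak's local background scaled to siCtrl.

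Gene positions came from the RefSeq table of GRCh38.p14, which has no exons, so exon and intron were not told apart. Strand and sequence came from the RefSeq promoter table (250 bases before to 50 after each start), in which all 10 genes matched. All members are named, and in the pathway lists up to 3 genes each by highest fold. The TOP1 sequence was added after values were seen. Members and lists were chosen with earlier results of these data known. Alternatives changed the gene window, the peak threshold, the list length and the rule for shared peaks. SciPy 1.17.1, pandas 2.3.3 and NumPy 2.4.6 ran under Python 3.11.15, Matplotlib 3.10.9 drew the figures, and the code was tested on simulated data.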

Additional observations from a re-analysis of the deposited data

Results flagged for a closer look

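The alternative contigs of chromosome 6 are outside the counts above. They held 112 of the 13157 siREXO4 peaks on all contigs, 143 of 21574 siRNaseH1 peaks and 14 of 4625 siCtrl peaks. The lists differ in length, so these counts alone do not rank them. The highest fold there was 28.2 in siREXO4, 32.7 in siRNaseH1 and 11.9 in siCtrl. On the primary chromosome between 28 and 34 Mb the lists held 25, 43 and 4 peaks in the same order.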

How the results depend on the processing

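No paired analysis was possible because each transfection has 1 merged list, and no library could be left out. Of 55 recomputed counts, 41 stayed within 1.5 times the reported count and 14 did not. With the gene span alone, the siREXO4 peaks numbered 4, and the siCtrl peaks 1, in 1 member. At a fold of at least 5, the peaks numbered 3 in siREXO4, 9 in siRNaseH1 and 1 in siCtrl. Then 3 members held a gained siRNaseH1 peak (27.8% of protein-coding genes), 1 a peak gained in both (ALYREF; 13.1%) and 1 a siCtrl peak (TOP1; 5.67%). With each list cut by p-value to the 4458 peaks of the shortest, the peaks numbered 3 in siREXO4 and 5 in siRNaseH1. Then 2 members held a gained siREXO4 peak (15.6% of protein-coding genes) and 3 a gained siRNaseH1 peak (14.2%), with 1 gained in both, at ALYREF (8.98%). Counting, after the data were seen, only peaks with no other annotated gene at the summit left 0 members with a peak gained in both, since that summit lies in PLCG1-AS1 at TOP1 and in ANAPC11 at ALYREF. The limit of 7 fragments means that hybrids of lower coverage were not detectable in any list. With 5 kb flanks, TOP3B entered the gained counts of both knockdowns and TOP3A that of siRNaseH1.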
